A study of Mus musculus with 15 samples.

Results

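The replication-type histone cluster genes are the mouse genes whose symbol begins with Hist, a cluster number from 1 to 4, h and the class of the histone protein, 66 of the 23352 genes in the deposited table. They comprise 6 genes of the linker histone H1 and 17 H2A, 18 H2B, 12 H3 and 13 H4 genes of the core histones. They were measured by RNA sequencing in C2C12 myoblasts, an established line of mouse muscle precursors, in a study of MLX, a transcription factor that pairs with MondoA (MLXIP) or ChREBP (MLXIPL) on DNA. All cells carried a lentiviral construct, and 5 groups of 3 libraries each were made. MLX-WT carried wild-type MLX, and MLX-DN carried a dominant-negative MLX. GFP-control carried a vector for green fluorescent protein alone. MLX-shRNA carried a short hairpin RNA against MLX, and NT-shRNA carried a non-targeting hairpin. The promoters that drive the constructs are not given in the sources used here, nor is whether cells were clones or mixed populations. The question put to these genes was whether their level moved when MLX activity was raised or lowered.

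Replication-type histone genes are switched on in S phase, when new DNA has to be packed, and their products form the nucleosome (H2A, H2B, H3 and H4) or bind the DNA between nucleosomes (H1). Their messenger RNAs usually end in a short stem-loop in place of a poly(A) tail. The stem-loop binding protein SLBP and the U7 small nuclear ribonucleoprotein bring about the cut behind it. Some of these genes are also known to make polyadenylated transcripts, above all in cells that leave the cell cycle. The libraries were made after poly(A) selection. A level here is therefore the level of what that selection retained, and the share of each gene's transcripts that it retained was not measured.

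The 3′ ends carry the structure by which these genes are known, so the sites of 5 members that stand high in the results are shown first. The 5 bases on either side are in lower case, and the 16 bases of the stem-loop are in capitals. They were found in the GENCODE transcripts of the GRCm38 build, as DNA letters on the strand of the transcript.
Hist1h1c: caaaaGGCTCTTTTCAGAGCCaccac
Hist2h2aa1: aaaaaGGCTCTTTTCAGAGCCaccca
Hist1h2bk: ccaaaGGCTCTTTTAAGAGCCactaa
Hist2h3c1: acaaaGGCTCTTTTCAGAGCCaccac
Hist1h4i: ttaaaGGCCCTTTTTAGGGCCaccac
The stem-loops lie at chr13:23739512-23739527 (plus strand), chr3:96246032-96246047 (plus strand), chr13:22036300-22036315 (plus strand), chr3:96247327-96247342 (plus strand) and chr13:22040966-22040981 (minus strand). All 5 are in the 3′ untranslated region of a transcript with 1 exon. A stem-loop of the consensus form was found in the annotated transcripts of 46 of the 66 genes, in 8 spellings. Many of the other transcripts, such as those of Hist1h2bl, Hist1h3i and Hist2h2bb, are annotated with 0 bases after the stop codon. A stem-loop could not be found in these, so the count does not show which genes lack one. The form seen in Hist1h1c, Hist2h2aa1 and Hist2h3c1 was the commonest, with 26 genes, among them 10 H2A, 8 H2B, 5 H3 and 3 H1 genes and no H4 gene. The form of Hist1h2bk was found in 6 genes. The stem-loops of the H4 genes were spelled in ways that no gene of another class shared, of which the commonest was found in 7 H4 genes and that of Hist1h4i in 2.

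The annotated transcripts differ in what follows the stem-loop. In Hist1h1c, 840 bases follow it, with the poly(A) signal AATAAA in the last 40 bases. In Hist1h4i, 330 bases follow it, with the variant ATTAAA in that window. In Hist2h2aa1 the transcript ends 35 bases after the stem-loop, and in Hist1h2bk 30 bases after it, with neither signal. Hist1h2bc, the H2B gene with the highest level, has 1 annotated transcript, spliced from 2 exons over 1156 bases, in which no stem-loop was found.

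The promoters of 3 of these members are shown because they carry different elements. Each run is the 250 bases before the start of the RefSeq gene (GRCm38.p6), on the gene's strand, with the motifs named below in capitals on either strand.
Hist1h1c: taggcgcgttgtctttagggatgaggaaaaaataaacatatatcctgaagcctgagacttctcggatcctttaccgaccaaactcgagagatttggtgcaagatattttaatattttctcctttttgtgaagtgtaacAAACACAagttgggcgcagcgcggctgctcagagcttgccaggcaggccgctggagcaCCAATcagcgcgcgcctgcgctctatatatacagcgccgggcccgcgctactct
Hist2h2aa1: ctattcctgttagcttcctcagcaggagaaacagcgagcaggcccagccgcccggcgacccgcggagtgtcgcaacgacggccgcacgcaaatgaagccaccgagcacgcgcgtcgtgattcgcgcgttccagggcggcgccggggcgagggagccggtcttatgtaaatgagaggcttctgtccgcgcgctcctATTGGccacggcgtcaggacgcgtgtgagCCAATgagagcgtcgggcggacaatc
Hist1h4i: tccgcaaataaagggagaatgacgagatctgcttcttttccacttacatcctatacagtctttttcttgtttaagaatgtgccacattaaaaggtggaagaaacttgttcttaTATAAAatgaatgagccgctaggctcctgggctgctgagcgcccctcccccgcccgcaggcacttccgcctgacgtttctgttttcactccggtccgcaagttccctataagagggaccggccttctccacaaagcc
They lie at chr13:23738557-23738806 (plus strand), chr3:96245247-96245496 (plus strand) and chr13:22041363-22041612 (minus strand). Hist1h1c has AAACACA, an element known from H1 promoters, 112 bases before the start and CCAAT 54 bases before it. Hist2h2aa1 has CCAAT on both strands, 55 and 26 bases before the start. Hist1h4i has TATAAA 137 bases before the start and no CCAAT. RefSeq held a promoter for 59 of the 66 genes. CCAAT was in 81.4% of these 59 and in 33.8% of all 32851 promoters, and TATAAA was in 47.5% and 12.4%. By class, CCAAT was in 6 of 6 H1, 16 of 16 H2A, 15 of 15 H2B, 8 of 10 H3 and 3 of 12 H4 promoters. AAACACA was in 5 of 6 H1 promoters and in 6.25% of all promoters. The octamer ATTTGCAT was in 7 of 16 H2A and 6 of 15 H2B promoters, in no H1, H3 or H4 promoter, and in 1.6% of all promoters. CACGTG, the core of the E-box element that MLX complexes are known to bind, was in 0 of the 59 and in 6.02% of all promoters. Both strands were searched and no motifs overlapped in these promoters. A match or its absence describes these 250 bases only.

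The deposited values are log2(FPKM + 2), where FPKM is the number of fragments scaled by transcript length and library size. Levels below are FPKM, and changes are differences of the deposited values. Because of the added 2, these are smaller than true fold changes for low genes. Library depth, estimated from the steps between low values, was 36.9 to 82.5 M reads, so that 1 FPKM over a transcript of 500 bases stands for 18.5 to 41.2 reads and 3 reads for 0.0727 to 0.162 FPKM, counting error only. Mlx itself was at 17.1 ± 0.516 FPKM (mean ± SD, n = 3) in GFP-control and 17.1 ± 0.778 in NT-shRNA, at 644 ± 11.6 with MLX-WT and 394 ± 8.76 with MLX-DN, which may hold construct reads, and at 3.21 ± 0.645 with MLX-shRNA. Of 8 muscle markers, Myod1 (58.5 to 95.2 FPKM), Des (1003 to 1200) and Myog (442 to 718) were high in every library. So were Chrna1 (243 to 390), Cdh15 (130 to 190) and Ncam1 (67.25 to 107). Myf5 was lower, at 3.64 to 12.9, and Pax7 was at 0.768 to 4.29. Of 15 markers of blood, endothelial, epithelial, fat and nerve cells, 11 stayed below 1 FPKM in every library, and Cd3e, Pecam1, Kdr, Epcam, Adipoq, Plin1 and Rbfox3 were below 0.1. The exceptions were the blood cell markers Ptprc, at 4.39 to 4.74 in the MLX-DN libraries and at or near 0 in all others, and Cd68, at 0.777 to 2.06, and the nerve cell markers Snap25, at up to 1.41, and Tubb3, at 7.52 to 23.1. The summed blood markers were at 5.29 to 5.64 with MLX-DN and 0.784 to 2.07 in the other groups, and the nerve cell sum at 7.52 to 7.86 with MLX-WT, 11.8 to 17.04 in the controls, 12.3 to 13.3 with MLX-DN and 20.98 to 23.1 with MLX-shRNA. Their part in the results was not tested. One library stood apart, MLX-WT 2, in which Rmrp and Rpph1, RNAs without a poly(A) tail, were at 13.7 and 12.4 FPKM, against 0.0797 to 1.16 in the other 14 libraries.

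Most of the 66 genes were low. A group mean above 1 FPKM was reached by 26 genes under GFP-control, 34 under MLX-WT, 26 under MLX-DN, 27 in NT-shRNA and 23 under MLX-shRNA, and by 23 genes in every group. A group mean above 10 FPKM was reached by 3 genes in GFP-control, 5 with MLX-WT and 2 in each of the other groups. By class, the genes above 1 FPKM in GFP-control, MLX-WT, MLX-DN, NT-shRNA and MLX-shRNA, in that order, numbered 3, 5, 3, 3 and 1 for H1 and 4, 6, 5, 5 and 4 for H2A. They numbered 10, 11, 10, 10 and 10 for H2B, 5, 6, 4, 5 and 4 for H3 and 4, 6, 4, 4 and 4 for H4. MLX-WT had the highest count in each class. At or below 1 FPKM in every library were 28 genes, the highest of them at 0.996.

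Hist1h2bc and Hist1h1c held 37.7% and 26.8% of the summed FPKM of all 66 genes, averaged over the 15 libraries. The summed FPKM of the 66 genes was 341 ± 5.84 under GFP-control, 395 ± 7.05 under MLX-WT, 287 ± 6.69 under MLX-DN, 281 ± 1.22 under NT-shRNA and 243 ± 10.96 under MLX-shRNA (n = 3 each). Without these 2 genes and without 2 genes whose values are a constant multiple of a neighbour's, the sum over the other 62 was 112 ± 2.73, 139 ± 4.01, 84.3 ± 4.64, 88.2 ± 1.28 and 81.3 ± 4.14 in the same order. MLX-WT was highest in both sums and MLX-shRNA lowest, but in the sum over 62 genes the MLX-shRNA libraries overlapped those of MLX-DN.

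**Figure D1:**
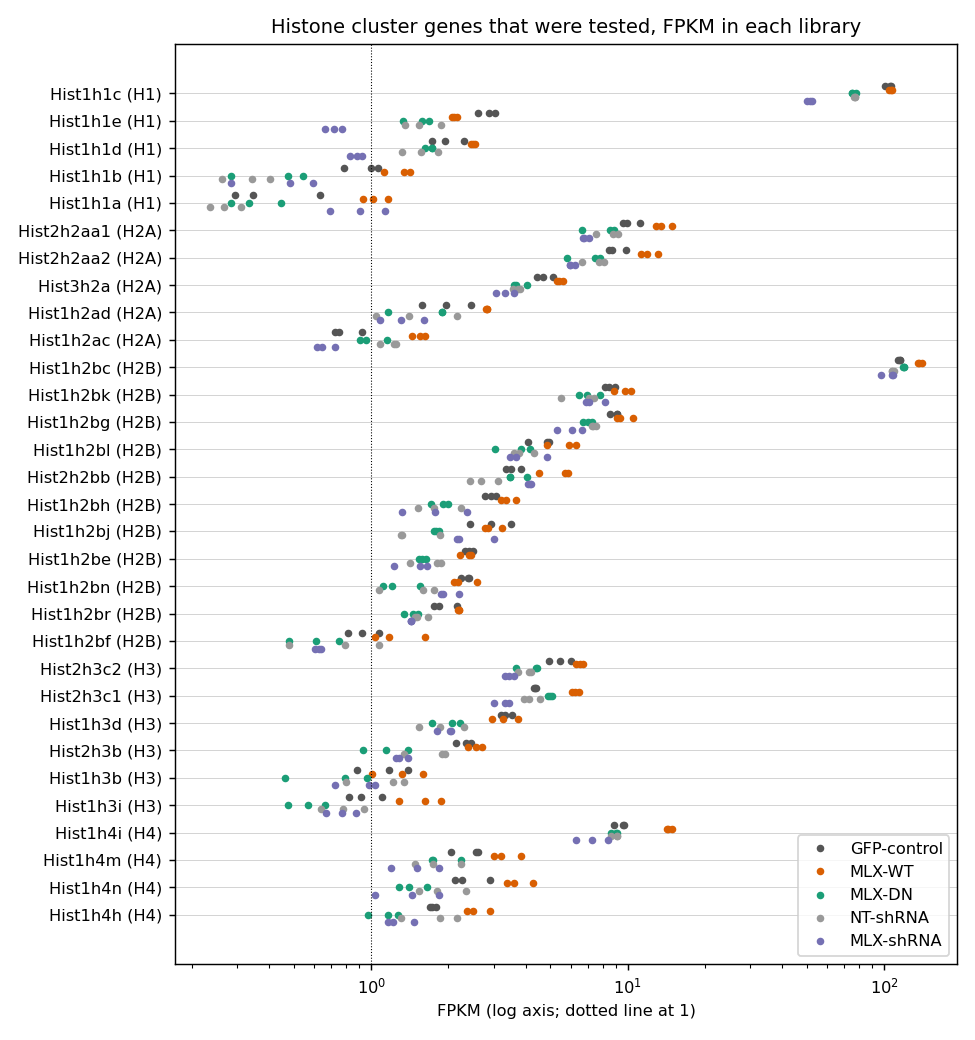
FPKM (log axis, dotted line at 1) of the 31 histone genes that were tested, by class and level, with 1 point per library coloured by group. Hist1h2bc and Hist1h1c stand near 100 FPKM and the others below 15, and the MLX-WT points are the rightmost for most genes.

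Summed by class without the same 4 genes, H1 was at 6.303 ± 0.305 FPKM under GFP-control, 7.002 ± 0.2000 under MLX-WT, 4.06 ± 0.387 under MLX-DN, 3.82 ± 0.528 under NT-shRNA and 2.99 ± 0.403 under MLX-shRNA. H2A was at 23.7 ± 1.28, 29.6 ± 1.52, 17.6 ± 1.49, 19.3 ± 1.37 and 16.3 ± 0.717 in the same order. H2B was at 41.6 ± 1.25, 48.1 ± 1.71, 32.1 ± 2.13, 31.7 ± 1.67 and 33.2 ± 2.78. H3 was at 20.8 ± 0.476, 24.7 ± 0.841, 14.9 ± 0.728, 15.6 ± 0.971 and 14.1 ± 0.821. H4 was at 19.9 ± 0.216, 29.7 ± 2.08, 15.7 ± 0.942, 17.7 ± 0.278 and 14.7 ± 0.449. By mean, all 5 classes were highest with MLX-WT, and 4 of them lowest with MLX-shRNA. In H2A, H3 and H4 the MLX-shRNA libraries overlapped those of MLX-DN, and in H3 also those of NT-shRNA. H2B was lowest in NT-shRNA, where it overlapped the MLX-DN and MLX-shRNA libraries. With all 18 H2B genes the order turned, at 139.8 ± 2.16 in NT-shRNA and 137.6 ± 8.60 with MLX-shRNA, and these libraries also overlapped.

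**Figure D2:**
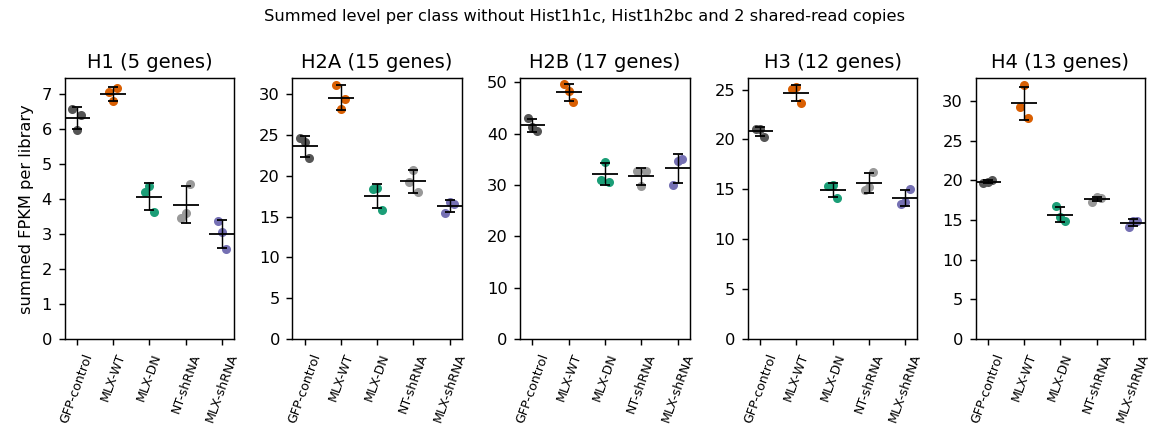
Summed FPKM per class in each library, without Hist1h1c, Hist1h2bc and 2 shared-read copies. Points are libraries and bars are the mean and SD (n = 3). The MLX-WT libraries are highest in each class, with H4 at 29.7 ± 2.08 against 19.9 ± 0.216 in GFP-control.

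For tests across the table, genes with at least 1 FPKM in at least 3 of the 15 libraries were fitted with limma, 11945 in all, and p-values were adjusted over these by Benjamini-Hochberg with a threshold of 0.05. Of the 66 histone genes 31 passed this filter, 5 of H1, 5 of H2A, 11 of H2B, 6 of H3 and 4 of H4. Without the MLX-WT libraries 27 of the 31 would have passed, all but Hist1h1a, Hist1h1b, Hist1h2bf and Hist1h3i, and without the MLX-shRNA libraries all but Hist1h1a. These 4 entered through groups where they were high, so counts over the 31 describe those genes alone. The p-values of these 4 below come from a fit with no filter. The exception is p-values with 1 library left out, which come from the filtered fit. Counts in the fit with no filter, which held all 66, are given beside them. The labels do not say whether libraries of a group were separate cultures, so p-values measure the spread between libraries, which may be technical. Comparisons that share a group are not independent of each other. In cultures such as these, fewer cells in S phase and less histone RNA per cell cannot be told apart.

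With MLX-WT against GFP-control, 18 of the 31 rose, 1 fell and 12 did not pass, where 27.6% of all tested genes rose and 42.7% fell. The median change was 0.17, against -0.051 over all tested genes. All 5 H2A and all 4 H4 genes rose, with 3 of 5 H1, 3 of 11 H2B and 3 of 6 H3 genes, and Hist1h1e was the one that fell. The H1 rises include Hist1h1a and Hist1h1b and the H3 rises Hist1h3i, which would not have passed the filter without the MLX-WT libraries. The H2A rises include the copies Hist2h2aa1 and Hist2h2aa2, which are 1 measurement. Libraries of the groups did not overlap for 20 of the 31, where 76.4% of all tested genes did not overlap in either direction. With no filter 21 of the 66 rose and 3 fell, where 19.9% and 29.7% of 19711 genes did. Group means were higher with MLX-WT for 50 of the 66. Of the 27 that pass the filter without the MLX-WT libraries, 15 rose and 1 fell. Without the library MLX-WT 2, 16 of the 31 rose and 1 fell. With a trend over GC content and transcript length removed, 13 of the 31 rose and 1 fell. The median was then 0.13, against -0.054 over all tested genes.

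With MLX-WT against NT-shRNA, the other control, 30 of the 31 rose and none fell, where 25.7% and 44.3% of all tested genes rose and fell. The exception, Hist1h3b, was at 0.085 with an adjusted p of 0.383. The median change was 0.41, against -0.060 over all tested genes. With no filter 40 of the 66 rose and none fell, where 19.2% and 28.5% did. With the trend over GC content and transcript length removed, 23 of the 31 rose, with a median of 0.26. Of the 27 that pass the filter without the MLX-WT libraries, 26 rose and none fell. The same 18 genes that rose against GFP-control rose against NT-shRNA. At an unadjusted p under 0.05 in limma's fits, the count of falls against NT-shRNA was also 0, with and without the filter.

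With MLX-DN against MLX-WT, 31 of the 31 fell, where 38.9% of all tested genes fell and 33.2% rose. The changes ran from -0.74 (Hist1h4n) to -0.20 (Hist1h2bc), with a median of -0.39 against -0.022 over all tested genes, and the highest adjusted p was 0.0092 (Hist1h3b). Libraries of the groups did not overlap for 31 of the 31, where 76.6% of all tested genes did not. With no filter 50 of the 66 fell and none rose, where 27.8% and 21.8% of the genes did, and group means were lower with MLX-DN for 63 of the 66. At an unadjusted p under 0.05 the count of rises was also 0 in both fits. With the trend over GC content and length removed, 24 of the 31 fell, with a median of -0.23. Of the 27 that pass the filter without the MLX-WT libraries, 27 fell. Without the library MLX-WT 2, 30 of the 31 fell. The class medians as first given were -0.37 for H1, -0.41 for H2A, -0.37 for H2B, -0.44 for H3 and -0.57 for H4. They include Hist1h1a, Hist1h1b, Hist1h2bf and Hist1h3i, which would not have passed the filter without the MLX-WT libraries.

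With MLX-DN against GFP-control, 22 of the 31 fell and 2 rose, where 48.8% of all tested genes fell and 32.6% rose. The median change was -0.23, against -0.079 over all tested genes. With no filter 31 of the 66 fell and 3 rose, where 35.6% and 22.3% did. Against NT-shRNA, however, 2 fell and 3 rose, where 48.7% of all tested genes fell and 21% rose, with a median of -0.016 against -0.085. That median turned to 0.077 after median centring, 0.049 after quantile normalization and 0.0044 with the trend over GC content and length removed. With no filter 4 of the 66 fell and 3 rose against NT-shRNA, where 31.2% and 14% did. The genes that passed in the same direction against both controls were Hist1h4h and Hist2h3b, both lower, and Hist2h3c1, higher. With the same trend removed, 12 of the 31 were called against GFP-control, all of them lower, and the median was -0.046, against -0.076 over all tested genes. After median centring the median against GFP-control was -0.14, and after quantile normalization -0.11.

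With MLX-shRNA against NT-shRNA, 12 of the 31 fell and 4 rose, where 39.3% of all tested genes fell and 30.8% rose. The median change was -0.097, against -0.025 over all tested genes. By class, 3 of 5 H1, 3 of 5 H2A, 1 of 11 H2B, 3 of 6 H3 and 2 of 4 H4 genes fell, and the 4 that rose were Hist1h1a and the H2B genes Hist1h2bj, Hist1h2bn and Hist2h2bb. With no filter 13 of the 66 fell and 7 rose, where 26.4% and 20.7% did. The split depended on scaling, with 5 rises and 9 falls after median centring, 6 and 8 after quantile normalization, and 3 and 18 with the trend over GC content and length removed, where the medians were -0.044, -0.045 and -0.17. Against GFP-control 22 fell and 1 rose, where 42.8% and 37.3% of all tested genes fell and rose. With no filter 26 of the 66 fell and 1 rose against GFP-control, where 31.9% and 25.6% did. Lower against both controls were 11 genes, and Hist1h1a was higher against both. Of the 30 that pass the filter without the MLX-shRNA libraries, 12 fell and 3 rose against NT-shRNA. Against GFP-control 22 of these 30 fell and none rose.

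The controls differed as well. With NT-shRNA against GFP-control, 20 of the 31 fell and 1, Hist1h2ac, rose, where 37.1% of all tested genes fell and 37% rose, and the median was -0.21 against -0.0013. With no filter 25 of the 66 fell and 2 rose, where 27.1% and 24.6% did. With the trend over GC content and length removed, 13 of the 31 fell and 2 rose, with a median of -0.076. For that reason a gene's change with MLX-WT, MLX-DN or MLX-shRNA is given in the account of single genes against 1 control only where its call against the other control was the same, and against both where it was not.

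**Figure D3:**
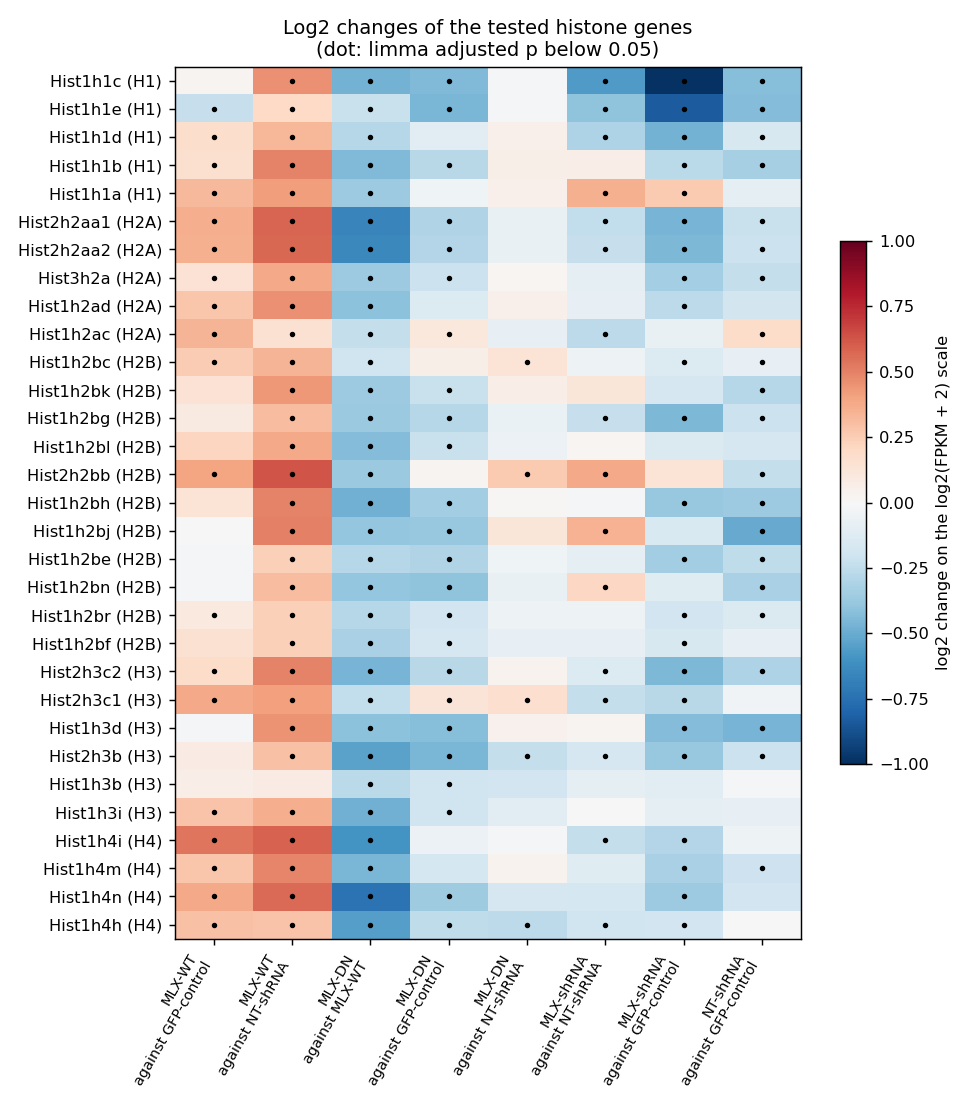
Changes of the 31 tested histone genes on the log2(FPKM + 2) scale in 8 comparisons, red for higher and blue for lower in the first-named group, with a dot where limma's adjusted p was below 0.05. The column of MLX-DN against MLX-WT is blue with a dot in each of the 31 rows, and that of MLX-DN against NT-shRNA holds 5 dots.

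Among the linker histones, Hist1h1c, the H1.2 gene, had the highest level. Its FPKM was 105, 106 and 101 in the GFP-control libraries, 107, 105 and 107 under MLX-WT, 75.1, 77.9 and 75.04 under MLX-DN, 77.3, 76.3 and 76.97 under NT-shRNA and 50.1, 52.5 and 51.5 under MLX-shRNA. GFP-control and MLX-WT overlapped above all others, MLX-DN and NT-shRNA overlapped below them, and the MLX-shRNA libraries were lowest. It fell with MLX-shRNA against NT-shRNA by 0.56 (limma, log2 scale, SE 0.0246, adjusted p = 1.74e-11) and with MLX-DN against MLX-WT by 0.47 (adjusted p = 1.7e-10). The change with MLX-WT against GFP-control was 0.027 (adjusted p = 0.343), while it rose by 0.45 against NT-shRNA (adjusted p = 2.62e-10).

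Hist1h1e, the H1.4 gene, was at 2.87, 3.03 and 2.602 in the GFP-control libraries, 2.07, 2.16 and 2.095 under MLX-WT, 1.57, 1.68 and 1.34 under MLX-DN, 1.36, 1.53 and 1.88 under NT-shRNA and 0.713, 0.767 and 0.663 under MLX-shRNA. Here every GFP-control library was above every MLX-WT library, and these were above all others. It fell with MLX-WT against GFP-control by 0.23 (limma, SE 0.0499, adjusted p = 0.00063) but rose by 0.20 against NT-shRNA (adjusted p = 0.00249). Its annotated transcript overlaps that of Hist1h2be, so both values are uncertain to that extent.

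The other H1 genes were low. Hist1h1d, the H1.3 gene, had group means of 1.99 ± 0.286 under GFP-control, 2.49 ± 0.0497 under MLX-WT, 1.69 ± 0.05696 under MLX-DN, 1.57 ± 0.2504 under NT-shRNA and 0.875 ± 0.0455 under MLX-shRNA. Hist1h1b, the H1.5 gene, had 0.948 ± 0.145 under GFP-control, 1.29 ± 0.1500 under MLX-WT, 0.432 ± 0.133 under MLX-DN, 0.337 ± 0.0714 under NT-shRNA and 0.452 ± 0.155 under MLX-shRNA. Hist1h1d rose with MLX-WT by 0.17 and 0.34 against GFP-control and NT-shRNA, and Hist1h1b by 0.16 and 0.49. With MLX-shRNA against NT-shRNA, Hist1h1d fell by 0.31 while Hist1h1b was at 0.068 and did not pass (limma with no filter, adjusted p = 0.367). Against GFP-control, Hist1h1b fell with MLX-shRNA by 0.27. Its rises had adjusted p = 0.0286 and 8.93e-06 in limma's fit with no filter.

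Hist1h1a, the H1.1 gene, differed from the rest of the class. Its FPKM was 0.6299, 0.294 and 0.347 in the GFP-control libraries, 0.928, 1.01 and 1.16 under MLX-WT, 0.447, 0.332 and 0.283 under MLX-DN, 0.236, 0.267 and 0.309 under NT-shRNA and 1.13, 0.901 and 0.691 under MLX-shRNA. The MLX-WT and MLX-shRNA libraries overlapped and were above every library of the other 3 groups. It rose with MLX-WT against GFP-control by 0.33 (limma with no filter, SE 0.05800, adjusted p = 0.00043) and with MLX-shRNA against NT-shRNA by 0.35 (adjusted p = 0.000234). It passed the filter only through these 2 groups, with 3 libraries at 1 FPKM or more. The transcript annotated for Hist1h1a shares no 50-base word with another member.

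Among the H2A genes, Hist2h2aa1 was highest. Its FPKM was 11.2, 9.91 and 9.63 in the GFP-control libraries, 14.9, 12.8 and 13.4 under MLX-WT, 8.53, 8.86 and 6.62 under MLX-DN, 8.803, 9.19 and 7.54 under NT-shRNA and 6.69, 7.08 and 6.75 under MLX-shRNA. MLX-WT was above every other library, and the MLX-DN, NT-shRNA and MLX-shRNA libraries lay below GFP-control. It rose with MLX-WT against GFP-control by 0.36 (limma, SE 0.0802, adjusted p = 0.000859) and fell with MLX-DN against MLX-WT by 0.66 (adjusted p = 2.57e-06). Hist2h2aa2, a copy whose transcript shares 100% of its 50-base words with other members, followed it at a ratio of 1.14 with a coefficient of variation of 0.422% over the 15 libraries, so the pair is 1 measurement. Hist1h2ao and Hist1h2ap, both below 1 FPKM, were tied in the same way, with a ratio of 0.769 and a coefficient of variation of 1.97%.

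Hist3h2a, which lies apart from the large cluster, was at 4.73 ± 0.347 under GFP-control, 5.43 ± 0.157 under MLX-WT, 3.78 ± 0.241 under MLX-DN, 3.704 ± 0.122 under NT-shRNA and 3.33 ± 0.277 under MLX-shRNA. Hist1h2ad was at 2.001 ± 0.439 under GFP-control, 2.82 ± 0.0198 under MLX-WT, 1.65 ± 0.416 under MLX-DN, 1.54 ± 0.575 under NT-shRNA and 1.33 ± 0.264 under MLX-shRNA, and 67.1% of its 50-base words occur in other members, so reads may have been split. Both rose with MLX-WT against GFP-control, by 0.14 (adjusted p = 0.00888) and 0.27 (adjusted p = 0.0308) in limma's fit.

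Hist1h2ac was low, and its 2 controls stood in the opposite order to that of most of the 31 genes. Its FPKM was 0.924, 0.722 and 0.748 in the GFP-control libraries, 1.44, 1.55 and 1.62 under MLX-WT, 0.907, 1.15 and 0.958 under MLX-DN, 1.22, 1.08 and 1.25 under NT-shRNA and 0.722, 0.616 and 0.644 under MLX-shRNA. The MLX-WT libraries were highest, and NT-shRNA was above GFP-control without overlap. It rose by 0.19 with NT-shRNA against GFP-control (limma, SE 0.0388, adjusted p = 0.000459), the one rise among the 31 in that comparison. With MLX-shRNA it fell by 0.26 against NT-shRNA (adjusted p = 2.36e-05) and was at -0.072 against GFP-control, where it did not pass (adjusted p = 0.1).

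Among the H2B genes, Hist1h2bc was far above the rest. Its FPKM was 116, 114 and 115 in the GFP-control libraries, 140.4, 135 and 137 under MLX-WT, 120.1, 119 and 119 under MLX-DN, 109, 108 and 108 under NT-shRNA and 97.7, 107 and 108 under MLX-shRNA. MLX-WT was above all other libraries, MLX-DN was above the libraries of both controls, and NT-shRNA and MLX-shRNA overlapped. It rose with MLX-WT against GFP-control by 0.26 (limma, SE 0.0306, adjusted p = 2.17e-06) and with MLX-DN against NT-shRNA by 0.14 (adjusted p = 0.000851). Against GFP-control MLX-DN was at 0.055 and did not pass (adjusted p = 0.109). With MLX-shRNA it was at -0.051 against NT-shRNA (adjusted p = 0.148) and fell by 0.14 against GFP-control (adjusted p = 0.000797).

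Hist1h2bk had means of 8.52 ± 0.3603 under GFP-control, 9.64 ± 0.762 under MLX-WT, 7.05 ± 0.675 under MLX-DN, 6.66 ± 0.996 under NT-shRNA and 7.36 ± 0.671 under MLX-shRNA, and Hist1h2bg had 8.902 ± 0.325 under GFP-control, 9.62 ± 0.766 under MLX-WT, 6.97 ± 0.285 under MLX-DN, 7.37 ± 0.155 under NT-shRNA and 6.001 ± 0.663 under MLX-shRNA. Hist1h2bl had 4.62 ± 0.471 under GFP-control, 5.68 ± 0.751 under MLX-WT, 3.67 ± 0.584 under MLX-DN, 3.89 ± 0.356 under NT-shRNA and 4.01 ± 0.752 under MLX-shRNA. All 3 fell with MLX-DN against MLX-WT, by 0.36, 0.37 and 0.44, and none of them passed with MLX-WT against GFP-control, at 0.14, 0.09 and 0.21. Against NT-shRNA all 3 rose with MLX-WT, by 0.43, 0.31 and 0.38. With MLX-shRNA against NT-shRNA, Hist1h2bg fell by 0.23 (limma, adjusted p = 0.00142), the one fall among the 11 H2B genes. Of their 50-base words 74.2%, 49.7% and 82.8% occur in other members, so their values are uncertain.

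Hist2h2bb was at 3.84, 3.52 and 3.36 in the GFP-control libraries, 5.87, 5.696 and 4.505 under MLX-WT, 3.48, 4.07 and 3.47 under MLX-DN, 3.12, 2.68 and 2.42 under NT-shRNA and 4.19, 4.15 and 4.07 under MLX-shRNA. The MLX-WT libraries were highest, NT-shRNA was lowest, and MLX-shRNA was above both controls. It rose with MLX-WT against GFP-control by 0.40 (limma, SE 0.0676, adjusted p = 8.51e-05) and with MLX-shRNA against NT-shRNA by 0.38 (adjusted p = 0.000143), while MLX-shRNA against GFP-control was at 0.14 and did not pass (adjusted p = 0.0689).

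Hist1h2bj was at 2.44, 3.51 and 2.92 in the GFP-control libraries, 3.24, 2.86 and 2.77 under MLX-WT, 1.79, 1.75 and 1.83 under MLX-DN, 1.32, 1.86 and 1.31 under NT-shRNA and 2.16, 2.19 and 3.01 under MLX-shRNA. GFP-control, MLX-WT and MLX-shRNA overlapped, and MLX-DN and NT-shRNA lay below GFP-control. It fell by 0.50 with NT-shRNA against GFP-control (limma, SE 0.0819, adjusted p = 4.89e-05) and rose by 0.35 with MLX-shRNA against NT-shRNA (adjusted p = 0.00144). Against GFP-control the MLX-shRNA value was -0.16 and did not pass.

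The other H2B genes were lower. Hist1h2bh was at 2.92 ± 0.133 under GFP-control, 3.41 ± 0.229 under MLX-WT, 1.87 ± 0.146 under MLX-DN, 1.84 ± 0.367 under NT-shRNA and 1.82 ± 0.5205 under MLX-shRNA. Hist1h2be was at 2.41 ± 0.0836 under GFP-control, 2.36 ± 0.123 under MLX-WT, 1.58 ± 0.05298 under MLX-DN, 1.696 ± 0.243 under NT-shRNA and 1.48 ± 0.223 under MLX-shRNA. Neither passed with MLX-WT against GFP-control (0.14 and -0.017), while both rose with MLX-WT against NT-shRNA, by 0.50 and 0.24. Both fell with MLX-DN against GFP-control, by 0.35 and 0.30, but neither passed against NT-shRNA, at 0.015 and -0.042 (limma, adjusted p = 0.875 and 0.459). Hist1h2bn was at 2.34 ± 0.0856 under GFP-control, 2.29 ± 0.266 under MLX-WT, 1.29 ± 0.234 under MLX-DN, 1.47 ± 0.357 under NT-shRNA and 1.99 ± 0.174 under MLX-shRNA, and Hist1h2br at 1.92 ± 0.215 under GFP-control, 2.195 ± 0.0112 under MLX-WT, 1.44 ± 0.0893 under MLX-DN, 1.55 ± 0.0993 under NT-shRNA and 1.43 ± 0.00606 under MLX-shRNA. Both are near copies of other members, with 86.4% and 88.5% of their 50-base words shared, so their values are uncertain. Hist1h2bn rose with MLX-shRNA against NT-shRNA by 0.20 and did not pass against GFP-control, at -0.12. Hist1h2br was at -0.051 against NT-shRNA and did not pass, and it fell by 0.19 against GFP-control. Hist1h2bf was at 0.938 ± 0.131 under GFP-control, 1.28 ± 0.305 under MLX-WT, 0.613 ± 0.137 under MLX-DN, 0.781 ± 0.299 under NT-shRNA and 0.621 ± 0.0174 under MLX-shRNA and fell with MLX-DN against MLX-WT by 0.32 (limma with no filter, adjusted p = 0.00333).

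Among the H3 genes, Hist2h3c2 and Hist2h3c1 were highest. Hist2h3c2 was at 5.47 ± 0.546 under GFP-control, 6.48 ± 0.198 under MLX-WT, 4.15 ± 0.4205 under MLX-DN, 4.01 ± 0.245 under NT-shRNA and 3.47 ± 0.147 under MLX-shRNA. Hist2h3c1 was at 4.41, 4.37 and 4.33 in the GFP-control libraries, 6.24, 6.07 and 6.49 under MLX-WT, 4.87, 5.06 and 4.96 under MLX-DN, 4.11, 3.94 and 4.57 under NT-shRNA and 3.44, 3.03 and 3.31 under MLX-shRNA. In Hist2h3c1 MLX-WT was highest, MLX-DN came next and lay above both controls, and MLX-shRNA was lowest, with no overlap between these steps. It rose with MLX-WT against GFP-control by 0.38 (limma, SE 0.0383, adjusted p = 3.47e-07) and with MLX-DN by 0.13 (adjusted p = 0.00586), and it fell with MLX-shRNA against NT-shRNA by 0.24 (adjusted p = 4.55e-05). Hist2h3c2 fell with MLX-DN against GFP-control by 0.28 (adjusted p = 0.000202) and was at 0.032 against NT-shRNA, where it did not pass (adjusted p = 0.62). The transcripts of these genes share 50-base words with each other, 34.7% of those of Hist2h3c1 and 63.5% of those of Hist2h3c2.

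Hist1h3d was at 3.36 ± 0.174 under GFP-control, 3.32 ± 0.393 under MLX-WT, 2.0 ± 0.253 under MLX-DN, 1.896 ± 0.382 under NT-shRNA and 1.96 ± 0.136 under MLX-shRNA. GFP-control and MLX-WT stood above the other 3 groups, and MLX-WT against GFP-control was at -0.013 (limma, adjusted p = 0.871) but 0.45 against NT-shRNA (adjusted p = 2.26e-05). Hist2h3b, with 79.7% of its words in other members, was at 2.31 ± 0.163 under GFP-control, 2.55 ± 0.166 under MLX-WT, 1.15 ± 0.234 under MLX-DN, 1.73 ± 0.332 under NT-shRNA and 1.31 ± 0.0774 under MLX-shRNA and fell with MLX-DN against GFP-control by 0.45 (adjusted p = 4.91e-06). Hist1h3b was at 1.15 ± 0.254 under GFP-control, 1.31 ± 0.292 under MLX-WT, 0.738 ± 0.252 under MLX-DN, 1.12 ± 0.289 under NT-shRNA and 0.9097 ± 0.166 under MLX-shRNA. Hist1h3i, with 87.6% of its words shared, was at 0.943 ± 0.143 under GFP-control, 1.59 ± 0.294 under MLX-WT, 0.568 ± 0.0925 under MLX-DN, 0.783 ± 0.151 under NT-shRNA and 0.769 ± 0.101 under MLX-shRNA. Hist1h3i, which would not have passed the filter without the MLX-WT libraries, rose with MLX-WT against GFP-control by 0.29 (limma with no filter, adjusted p = 0.00136). Hist1h3b and Hist2h3b, at 0.07 and 0.078, did not pass, and against NT-shRNA Hist2h3b rose by 0.29.

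Among the H4 genes, Hist1h4i was highest, and with MLX-WT against GFP-control its rise was the largest of the 31 on the log2(FPKM + 2) scale, which shrinks the changes of low genes. As a ratio of mean FPKM its rise was 1.55-fold, below the 2.44 of Hist1h1a, 1.92 of Hist1h2ac and 1.69 of Hist1h3i, which were low. Its FPKM was 9.71, 9.56 and 8.83 in the GFP-control libraries, 14.9, 14.4 and 14.2 under MLX-WT, 8.98, 9.07 and 8.58 under MLX-DN, 8.63, 9.12 and 9.08 under NT-shRNA and 6.31, 8.38 and 7.26 under MLX-shRNA. The MLX-WT libraries lay above all others, and GFP-control, MLX-DN and NT-shRNA overlapped. It rose by 0.54 against GFP-control (limma, SE 0.0579, adjusted p = 6.6e-07) and by 0.59 against NT-shRNA (adjusted p = 2.55e-07). With MLX-DN it was at -0.062 and -0.0081 against the same controls and did not pass in either (adjusted p = 0.328 and 0.911). It fell with MLX-shRNA against NT-shRNA by 0.24 (adjusted p = 0.00187).

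Hist1h4n was at 2.43 ± 0.418 under GFP-control, 3.76 ± 0.462 under MLX-WT, 1.45 ± 0.186 under MLX-DN, 1.89 ± 0.409 under NT-shRNA and 1.44 ± 0.401 under MLX-shRNA. Hist1h4m was at 2.405 ± 0.303 under GFP-control, 3.35 ± 0.427 under MLX-WT, 1.91 ± 0.297 under MLX-DN, 1.82 ± 0.387 under NT-shRNA and 1.51 ± 0.322 under MLX-shRNA. The pair share most of their sequence (85.6% and 89.8% of their 50-base words lie in other members), so reads may have been split between them. Hist1h4h was at 1.74 ± 0.0499 under GFP-control, 2.58 ± 0.279 under MLX-WT, 1.13 ± 0.1498 under MLX-DN, 1.77 ± 0.435 under NT-shRNA and 1.28 ± 0.162 under MLX-shRNA. These 3 rose with MLX-WT against GFP-control by 0.38, 0.28 and 0.29 and fell with MLX-DN against MLX-WT by 0.74, 0.45 and 0.55.

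**Figure D4:**
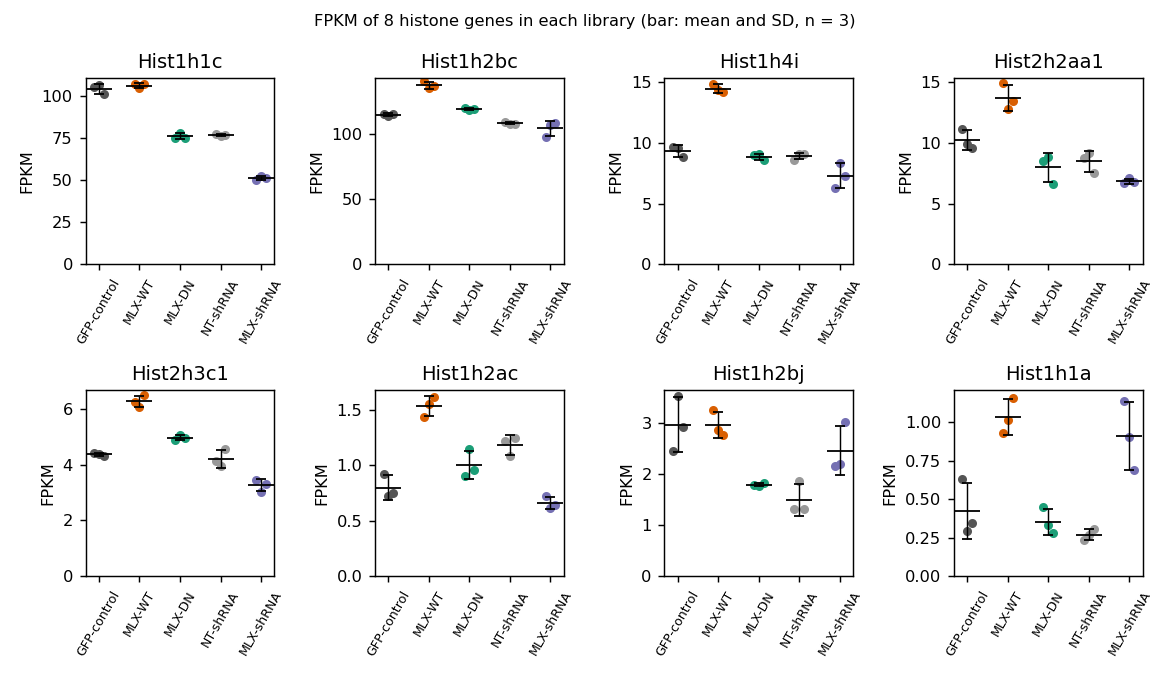
FPKM of 8 histone genes in each library, with the mean and SD of each group (n = 3) and axes from 0. Hist1h4i and Hist2h2aa1 are highest with MLX-WT, Hist1h1c is as high in GFP-control as with MLX-WT, and Hist1h1a is highest with MLX-WT and MLX-shRNA.

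Of the 35 genes that did not pass the filter, 7 reached 1 FPKM in some library. Hist2h2ac had means of 0.706 ± 0.02800 under GFP-control, 1.14 ± 0.333 under MLX-WT, 0.623 ± 0.269 under MLX-DN, 0.648 ± 0.129 under NT-shRNA and 0.496 ± 0.09001 under MLX-shRNA, Hist1h2ae of 0.887 ± 0.0708 under GFP-control, 0.807 ± 0.2400 under MLX-WT, 0.312 ± 0.0493 under MLX-DN, 0.561 ± 0.295 under NT-shRNA and 0.692 ± 0.272 under MLX-shRNA and Hist1h2ai of 0.851 ± 0.378 under GFP-control, 0.644 ± 0.1201 under MLX-WT, 0.469 ± 0.198 under MLX-DN, 0.586 ± 0.158 under NT-shRNA and 0.692 ± 0.219 under MLX-shRNA. Hist2h2be had 0.539 ± 0.0473 under GFP-control, 0.776 ± 0.113 under MLX-WT, 0.9001 ± 0.127 under MLX-DN, 0.745 ± 0.0687 under NT-shRNA and 0.387 ± 0.0551 under MLX-shRNA, with MLX-DN above GFP-control in every library. The H4 gene Hist1h4k had 0.857 ± 0.0993 under GFP-control, 1.15 ± 0.481 under MLX-WT, 0.385 ± 0.191 under MLX-DN, 0.454 ± 0.253 under NT-shRNA and 0.174 ± 0.1700 under MLX-shRNA, Hist1h4c had 0.551 ± 0.0509 under GFP-control, 1.04 ± 0.453 under MLX-WT, 0.543 ± 0.159 under MLX-DN, 0.723 ± 0.456 under NT-shRNA and 0.6001 ± 0.174 under MLX-shRNA and Hist1h4a had 0.509 ± 0.103 under GFP-control, 0.827 ± 0.223 under MLX-WT, 0.308 ± 0.114 under MLX-DN, 0.377 ± 0.07704 under NT-shRNA and 0.535 ± 0.139 under MLX-shRNA. At these levels the SD was often a large share of the mean, and none of these 7 was in the filtered fit. They enter the counts of the fit with no filter given above.

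The effect of MLX-shRNA (against NT-shRNA) was set against that of MLX-DN (against GFP-control) by limma's test of their difference. Of the 31 genes, 12 had a higher and 5 a lower change with MLX-shRNA, and 14 did not pass, where 42.8% and 32% of all tested genes were higher and lower. The median difference was 0.12, against 0.063 over all tested genes. It was 0.082 after median centring and turned to -0.071 with the trend over GC content and length removed, where 6 were higher and 8 lower. After quantile normalization 9 were higher and 6 lower. With no filter 21 of the 66 were higher and 5 lower, where 30.3% and 21.5% of the genes were. Of the 30 that pass the filter without the MLX-shRNA libraries, 11 were higher and 5 lower. Of the 27 that pass it without the MLX-WT libraries, 9 were higher and 5 lower. H2B held 7 of the 12 higher differences, the largest in Hist1h2bj (0.73, SE 0.116, adjusted p = 3.73e-05) and Hist1h2bn (0.61, adjusted p = 3.53e-05). The lowest were Hist2h3c1 (-0.37, adjusted p = 1.68e-05) and Hist1h2ac (-0.36, adjusted p = 2.31e-05). No H4 gene passed. Both controls enter this difference, and they differed from each other in many of these genes.

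Some calls of the filtered fit were lost when 1 library was left out. With MLX-WT against GFP-control, the call of Hist3h2a was lost without GFP-control 3 (0.11, adjusted p = 0.0518) and that of Hist1h1b without GFP-control 2 (0.12, adjusted p = 0.0809) or MLX-WT 1 (0.13, adjusted p = 0.0636). Those of Hist1h2ad and Hist1h2br were lost without GFP-control 1, GFP-control 3, MLX-WT 1, MLX-WT 2 or MLX-WT 3 (log2 changes 0.20 to 0.28, adjusted p = 0.059 to 0.141) and without GFP-control 2, GFP-control 3, MLX-WT 1, MLX-WT 2 or MLX-WT 3 (log2 changes 0.068 to 0.10, adjusted p = 0.052 to 0.135). With MLX-DN against MLX-WT, Hist1h3b was lost without MLX-WT 2 (-0.21, adjusted p = 0.0525) or MLX-DN 3 (-0.20, adjusted p = 0.057). With MLX-DN against GFP-control, Hist1h2bk was lost without GFP-control 1 (-0.20, adjusted p = 0.0572) or MLX-DN 3 (-0.17, adjusted p = 0.0778), Hist1h2ac without GFP-control 2, GFP-control 3 or MLX-DN 2 (log2 changes 0.068 to 0.09, adjusted p = 0.0749 to 0.13), Hist1h2bl without GFP-control 1, GFP-control 2 or MLX-DN 1 (log2 changes -0.20 to -0.14, adjusted p = 0.101 to 0.191), Hist1h2bf without GFP-control 1, GFP-control 2, MLX-DN 1 or MLX-DN 3 (log2 changes -0.17 to -0.13, adjusted p = 0.0704 to 0.145) and Hist1h3b without GFP-control 1, GFP-control 2, MLX-DN 2 or MLX-DN 3 (log2 changes -0.22 to -0.13, adjusted p = 0.0523 to 0.19).

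With MLX-shRNA against NT-shRNA, Hist2h2aa1 was lost without NT-shRNA 2 (-0.20, adjusted p = 0.0602), its copy Hist2h2aa2 without NT-shRNA 2 (-0.19, adjusted p = 0.0722) and Hist1h2bn without NT-shRNA 3 (0.12, adjusted p = 0.092) or MLX-shRNA 2 (0.17, adjusted p = 0.0604). Hist1h4h was lost without NT-shRNA 1, NT-shRNA 2, MLX-shRNA 1 or MLX-shRNA 3 (log2 changes -0.18 to -0.12, adjusted p = 0.0522 to 0.115), Hist2h3b without NT-shRNA 2, NT-shRNA 3, MLX-shRNA 1 or MLX-shRNA 2 (log2 changes -0.16 to -0.13, adjusted p = 0.0512 to 0.105) and Hist2h3c2 without NT-shRNA 1, NT-shRNA 3, MLX-shRNA 1 or MLX-shRNA 2 (log2 changes -0.14 to -0.12, adjusted p = 0.0667 to 0.11). With NT-shRNA against GFP-control, Hist1h1d was lost without GFP-control 3 (-0.11, adjusted p = 0.0601) or NT-shRNA 2 (-0.11, adjusted p = 0.0589), Hist2h2aa1 without GFP-control 1 or NT-shRNA 3 (log2 changes -0.17 to -0.15, adjusted p = 0.101 to 0.115), Hist2h2aa2 without GFP-control 1 or NT-shRNA 3 (log2 changes -0.16 to -0.15, adjusted p = 0.102 to 0.115), Hist1h2bc without GFP-control 1, GFP-control 3, NT-shRNA 2 or NT-shRNA 3 (log2 changes -0.082 to -0.078, adjusted p = 0.0515 to 0.0612) and Hist1h4m without GFP-control 2, GFP-control 3, NT-shRNA 1 or NT-shRNA 2 (log2 changes -0.20 to -0.14, adjusted p = 0.0851 to 0.165). In the difference of effects, Hist1h1d was lost without GFP-control 2 (-0.15, adjusted p = 0.0598) or NT-shRNA 3 (-0.15, adjusted p = 0.0594), Hist1h2br without GFP-control 1, MLX-DN 3, NT-shRNA 1 or NT-shRNA 2 (log2 changes 0.093 to 0.13, adjusted p = 0.054 to 0.0761), Hist1h2bc without GFP-control 2, GFP-control 3, MLX-DN 1, MLX-DN 3, NT-shRNA 1, NT-shRNA 2, NT-shRNA 3 or MLX-shRNA 1 (log2 changes -0.11 to -0.06, adjusted p = 0.0507 to 0.0743) and Hist1h3i without GFP-control 1, GFP-control 3, MLX-DN 2, MLX-DN 3, NT-shRNA 2, NT-shRNA 3, MLX-shRNA 1 or MLX-shRNA 3 (log2 changes 0.15 to 0.20, adjusted p = 0.0592 to 0.116). The other calls of members in these 6 comparisons passed without each library in turn.

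H2A and H2B genes often stand head to head and share the stretch between their starts. Of 8 such pairs within 500 bases, the H2B gene had the higher mean FPKM over the 15 libraries in 7. Hist1h2bk was at 7.85 and its partner Hist1h2ah, 178 bases away, at 0.561. Hist1h2bg was at 7.77 and Hist1h2ae, 180 bases away, at 0.652. Hist1h2bl was at 4.37 and Hist1h2ai at 0.648, Hist1h2bj at 2.33 and Hist1h2ag at 0.410, and Hist1h2bn at 1.88 and Hist1h2ak at 0.167. In the exception, Hist1h2ad was at 1.87 and Hist1h2bf at 0.847. Near copies among both classes make the levels of single genes uncertain. The H2A partners Hist1h2ah, Hist1h2ai, Hist1h2ag and Hist1h2ak share 90.7%, 90.1%, 78.9% and 52.3% of their 50-base words with other members.

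Levels were also set beside the annotated form of the 3′ end. The 22 genes with a transcript of at least 100 bases after the stem-loop had a median mean FPKM of 0.864, and the 22 whose transcripts end sooner had 0.652. The 18 with no stem-loop in the annotated transcript and no intron had 0.601, and the 4 with a spliced transcript 1.81. Many of these 18 are annotated only to the stop codon or just past it, so their 3′ ends are not known from the annotation. The ranges overlapped widely, from 0.0508 to 82.9 in the first and from 0.165 to 9.47 in the next. No test was made of this, since genes of a class share sequence.

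Genes of DNA replication, listed because histone supply is tied to S phase, had another pattern than the histone genes. Of 24 such genes, 22 fell and 1 rose with MLX-WT against GFP-control (median -0.37), where 42.7% and 27.6% of all tested genes did, and 17 fell and 1 rose against NT-shRNA (-0.18), where 44.3% and 25.7% did. With MLX-DN 22 fell against GFP-control (-0.79, 48.8% of all tested genes) and 24 against NT-shRNA (-0.61, 48.7%). With MLX-shRNA 23 fell against NT-shRNA (-0.52, 39.3%) and 22 against GFP-control (-0.76, 42.8%). With MLX-DN against MLX-WT 23 fell (-0.39, 38.9%). Their summed FPKM was 584.8 to 588.9 under GFP-control, 472 to 480.0 under MLX-WT, 377 to 381 under MLX-DN, 530.4 to 543 under NT-shRNA and 372 to 377 under MLX-shRNA. MLX-WT therefore stood below both controls in the replication genes. It stood above both in each histone class summed without Hist1h1c, Hist1h2bc and the shared-read copies. With all members, the H1 sums of MLX-WT (111.3 to 114.05) and GFP-control (107.3 to 112.2) overlapped. Mcm2, a subunit of the replicative helicase, was at 23.5 ± 0.167 under GFP-control, 14.2 ± 0.467 under MLX-WT, 8.23 ± 0.281 under MLX-DN, 16.1 ± 0.266 under NT-shRNA and 10.8 ± 0.3504 under MLX-shRNA. Pcna, the sliding clamp, was at 86.8 ± 2.16, 80.1 ± 0.465, 75.4 ± 1.26, 89.1 ± 2.49 and 65.4 ± 0.6799 in the same order. E2f2, a transcription factor of the E2F family, rose with MLX-WT and MLX-DN against GFP-control, by 0.88 and 0.74, but fell against NT-shRNA, by 0.43 and 0.58.

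**Figure D5:**
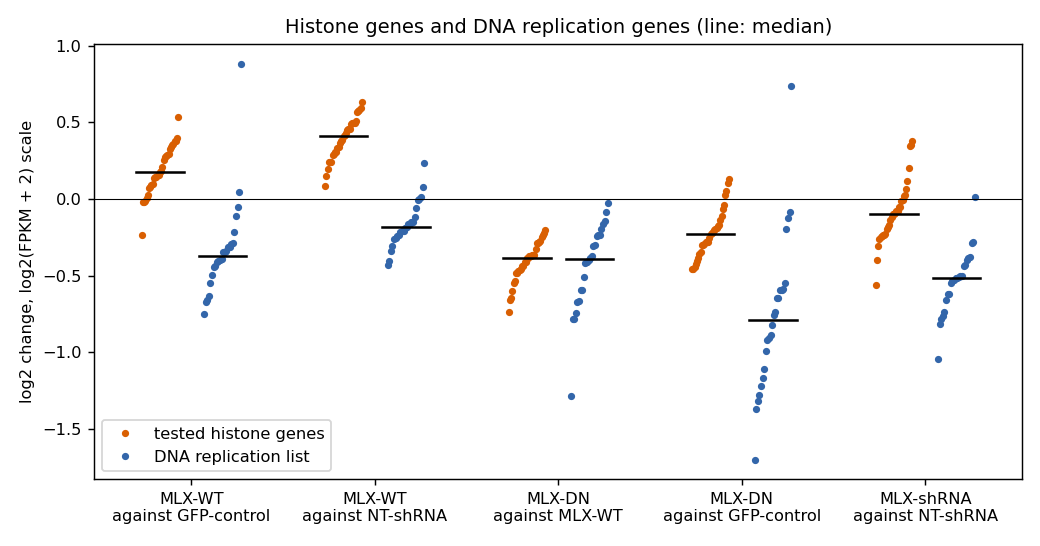
Log2 changes of the tested histone genes (31 points, orange) and of 24 DNA replication genes (blue) in 5 comparisons, on the log2(FPKM + 2) scale, with a line at each median. With MLX-WT against GFP-control the medians are 0.17 and -0.37, and with MLX-DN against MLX-WT both are -0.39.

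The histone genes outside the clusters, which carry introns or poly(A) signals and serve also outside S phase, are 11 in the list, and all were tested. With MLX-WT against GFP-control 7 fell and 3 rose, where 42.7% and 27.6% of all tested genes did, and with MLX-WT against NT-shRNA 1 fell and 7 rose, where 44.3% and 25.7% did. With MLX-DN against MLX-WT 9 fell and 2 rose, where 38.9% and 33.2% did. With MLX-DN 10 fell and 1 rose against GFP-control (48.8% and 32.6% of all tested genes), and 9 and 2 against NT-shRNA (48.7% and 21%). With MLX-shRNA 7 fell and 2 rose against NT-shRNA (39.3% and 30.8%), and 10 and 1 against GFP-control (42.8% and 37.3%). Between the controls, 9 fell and 2 rose with NT-shRNA against GFP-control (37.1% and 37%). H1f0, the H1 of resting and differentiated cells, was at 104 ± 2.03 under GFP-control, 71.1 ± 0.871 under MLX-WT, 76.9 ± 0.668 under MLX-DN, 69.96 ± 2.11 under NT-shRNA and 68.3 ± 0.741 under MLX-shRNA. H1fx fell with MLX-DN against MLX-WT by 1.13, from 6.04 ± 0.346 to 1.67 ± 0.138. The genes of the replacement histone H3.3 went apart in the same comparison, since H3f3a rose by 0.17 and H3f3b fell by 0.31. H2afz, the gene of H2A.Z, rose with MLX-shRNA against NT-shRNA by 0.21 and fell with MLX-DN against MLX-WT by 0.25.

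Genes for the 3′ end processing and transcription of histone genes, 19 tested of 20, went in both directions. With MLX-WT 7 fell and 3 rose against GFP-control (42.7% and 27.6% of all tested genes) and 11 fell and 1 rose against NT-shRNA (44.3% and 25.7%). With MLX-DN 11 fell and 5 rose against GFP-control (48.8% and 32.6%), 13 and 1 against NT-shRNA (48.7% and 21%), and 10 and 5 against MLX-WT (38.9% and 33.2%). With MLX-shRNA 7 fell and 8 rose against NT-shRNA (39.3% and 30.8%) and 5 and 9 against GFP-control (42.8% and 37.3%). Lsm10, a protein of the U7 particle, was at 8.998 ± 0.223 under GFP-control, 6.83 ± 0.0876 under MLX-WT, 6.201 ± 0.434 under MLX-DN, 8.13 ± 0.186 under NT-shRNA and 6.82 ± 0.112 under MLX-shRNA. Of 18 histone chaperones, read against the same shares, 8 fell and 4 rose with MLX-WT against GFP-control, and 13 fell and 5 did not pass against NT-shRNA. With MLX-DN 11 fell and 5 rose against GFP-control and 13 and 1 against NT-shRNA, and with MLX-shRNA 12 and 3 did against NT-shRNA and 9 and 5 against GFP-control. Chaf1b, a subunit of the chromatin assembly factor that deposits new H3 and H4, was at 5.92 ± 0.3497, 3.68 ± 0.178, 1.85 ± 0.0845, 4.75 ± 0.266 and 1.95 ± 0.0738 in the same order. Asf1b, an H3 and H4 chaperone, was at 12.9 ± 0.5105, 24.97 ± 0.3502, 16.97 ± 0.927, 30.9 ± 1.56 and 16.04 ± 0.596. With MLX-WT it rose against GFP-control by 0.85 but fell against NT-shRNA by 0.29, and it fell with MLX-DN against MLX-WT by 0.51.

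Retention of RNAs that carry no poly(A) tail can differ between libraries. The table held 119 other such RNAs, mainly small nucleolar RNAs, of which 91 were tested. With MLX-WT against GFP-control 8 rose and 13 fell, where 27.6% and 42.7% of all tested genes did, and with MLX-DN against MLX-WT 13 rose and 17 fell, where 33.2% and 38.9% did, with medians of -0.0067 and -0.013. With MLX-WT against NT-shRNA 13 rose and 15 fell, where 25.7% and 44.3% did. With MLX-shRNA 28 rose and 10 fell against NT-shRNA (median 0.14), where 30.8% and 39.3% did, and 35 and 18 did against GFP-control (0.21), where 37.3% and 42.8% did. Rmrp and Rpph1 were high in the library MLX-WT 2 alone, as given above. Rmrp did not pass the filter, and the change of Rpph1 with MLX-WT against GFP-control was 0.99 (limma, adjusted p = 0.0622). Their summed FPKM was 5436 to 5485 under GFP-control, 5004 to 5246 under MLX-WT, 4352 to 4520.0 under MLX-DN, 4591 to 4706 under NT-shRNA and 4914 to 5089 under MLX-shRNA, highest in GFP-control where the histone sums were highest with MLX-WT. Their part in the changes of the histone genes was not tested.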

How the data were processed

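The data are 15 RNA sequencing libraries from C2C12 cells in 5 labelled groups of 3. A stranded kit was used on poly(A) enriched RNA, per the labels' protocols. The submitters' processing notes name CASAVA, TopHat2, STAR and the build mm9. Their roles, the counting tool, whether strand was used and what was done with reads of several genes were not given in the sources used here.

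Values are log2 FPKM in a single table of 23352 genes that the authors deposited. In each library the lowest was 1, which was read as an offset of 2 inside the logarithm, and FPKM was recovered by undoing it. The table holds no counts, so no count model was used. Library depth came from the spacing of low FPKM values of 15972 genes with 1 RefSeq length, where 68.1% to 71.9% lay within 0.05 of whole reads and 10% would if evenly spread.

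The filter kept genes that reach 1 FPKM in 3 or more libraries. Their log2 values were fitted with limma 3.58.1 (R 4.3.3), all 15 libraries together, 1 mean per group and a variance trend. Tests were two-sided, and p-values were adjusted by Benjamini-Hochberg over 11945 genes, with a threshold of 0.05. The fit was tested on simulated data. Mean ± SD is over the 3 libraries of a group.

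All members that passed the filter are named, and of the others those that reach 1 FPKM in any library. From each companion list up to 4 genes of highest mean and up to 4 of lowest p could be named, and those shown were picked among them. The members and lists were chosen with earlier results of these data known. Stem-loops, transcript lengths, GC content and shared 50-base words came from the GENCODE annotation of GRCm38, and promoters from RefSeq (GRCm38.p6). The files' build was not used for coordinates. Of the 66 members, 1 did not match a single RefSeq gene by symbol or synonym, and a promoter was found for 59.

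Alternatives were offsets of 1 and 0.1, no filter and a filter of 5 FPKM, median centring, quantile normalization, no variance trend, only the groups compared, a replicate block, removal of a trend over GC content and length, the other control, and each library left out in turn. Leaving the shared-read copies out of the count was chosen after seeing the data.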

Additional observations from a re-analysis of the deposited data

Results flagged for a closer look

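In 17 histone genes the change with MLX-shRNA against NT-shRNA differed from the change with MLX-DN against GFP-control in limma's test of the difference of effects on the log2(FPKM + 2) scale, at an adjusted p below 0.05 over all tested genes. The difference was above 0 in 12 of them. It was 0.39 in Hist1h1a, which rose with MLX-shRNA and did not pass with MLX-DN, and 0.35 in Hist1h1b, which did not pass with MLX-shRNA and fell with MLX-DN. Among the H2B genes it was 0.73 in Hist1h2bj and 0.61 in Hist1h2bn, both of which rose with MLX-shRNA and fell with MLX-DN. It was 0.35 in Hist2h2bb, 0.34 in Hist1h2bk, 0.33 in Hist1h2bh, 0.21 in Hist1h2be and 0.14 in Hist1h2br. Among the H3 genes it was 0.45 in Hist1h3d, 0.28 in Hist2h3b and 0.19 in Hist1h3i.

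The difference was below 0 in 5 genes. It was -0.37 in Hist2h3c1 and -0.36 in Hist1h2ac, both of which fell with MLX-shRNA and rose with MLX-DN against GFP-control. It was -0.20 in Hist1h1d, -0.12 in Hist1h1c and -0.11 in Hist1h2bc. The controls differ between these effects, and NT-shRNA against GFP-control was itself called in 14 of the 17 genes. Against the other control, Hist1h2bj, Hist1h2bn and Hist1h2ac passed with neither MLX-shRNA nor MLX-DN. In the fit with no filter the difference of Hist1h3i did not pass (limma, adjusted p = 0.0795). Hist1h1a, Hist1h1b and Hist1h3i would not have passed the filter without the MLX-WT libraries, nor Hist1h1a without those of MLX-shRNA.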

How the results depend on the processing

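Counts of histone genes called under other settings are given in the order MLX-WT against GFP-control, MLX-DN against GFP-control, MLX-shRNA against NT-shRNA, MLX-DN against MLX-WT, NT-shRNA against GFP-control and MLX-shRNA effect minus MLX-DN effect. As reported they are 19, 24, 16, 31, 21 and 17. They join both directions and are to be read against the shares of all tested genes given with each comparison above. With a filter of 5 FPKM, which left 10 members, the counts were 7, 8, 7, 10, 8 and 4. With no filter, MLX-DN against MLX-WT gave 50 and the difference of effects 26 of 66. With the other control, NT-shRNA, MLX-WT gave 30 and MLX-DN 5. With the trend over GC content and length removed, MLX-DN against GFP-control gave 12, and the cause was not tested. After quantile normalization the difference of effects gave 9 higher and 6 lower, where 12 and 5 were reported. Without the shared-read copies the counts were 18, 23, 15, 30, 20 and 17. Leaving out 1 library at a time gave 16 to 19, 21 to 23, 13 to 17, 30 to 31, 18 to 20 and 14 to 18. No share over all tested genes is given for the 5 FPKM filter, quantile normalization, the trend removal, the replicate block or the libraries left out. Those counts therefore describe the histone genes alone.

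Libraries with the same replicate number did not deviate together, with correlations of -0.0933 to 0.182 and 4 of 30 above 0.1, so the numbers were not taken as pairs. With a replicate block the counts were 20, 24, 16, 31, 21 and 17.

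The sign of some changes turned. With NT-shRNA as the control, MLX-WT gave Hist1h1e 0.20, Hist1h2be 0.24, Hist1h2bn 0.31 and Hist1h3d 0.45. MLX-DN gave Hist1h1b 0.057, Hist1h2ac -0.0845, Hist1h2bh 0.015, Hist1h2bj 0.12, Hist1h2bk 0.067, Hist1h3d 0.041, Hist2h3c2 0.032 and Hist3h2a 0.0197. With GFP-control as the control, MLX-shRNA gave Hist1h1b -0.27, Hist1h2bj -0.16, Hist1h2bn -0.12 and Hist1h3d -0.44. The controls differed in these genes by the values given for NT-shRNA against GFP-control. With the trend over GC content and length removed, MLX-DN against GFP-control gave Hist1h2ac -0.0103, Hist1h2bf 0.045, Hist1h2bl 0.028, Hist1h3b 0.014 and Hist1h3i 0.11. With the same removal, the difference of effects gave Hist1h1d 0.085, Hist1h2bg -0.16, Hist1h3i -0.14, Hist1h4h -0.22, Hist2h2aa1 -0.28, Hist2h2aa2 -0.27 and Hist2h3b -0.043, and the cause was not tested.

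Poly(A) selection, near copies among the members and levels near 1 FPKM limit what single genes show.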
